A study of Mus musculus with 6 samples.

Results

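Gap junctions and tight junctions are the contacts through which hepatocytes exchange small molecules and by which they seal bile canaliculi from the blood side. The 10 genes described here encode 2 connexins (Gjb1 and Gjb2), 6 claudins (Cldn1, Cldn2, Cldn3, Cldn5, Cldn12 and Cldn14), the scaffold protein Tjp1 and the membrane protein occludin (Ocln). They were chosen by gene symbol, with earlier results of these data known. All 10 had a probe set among the 16331 gene probe sets of the table. All 10 also lay above the filter used as an alternative, a mean of 6.51 on the log2 scale, which is the 40th percentile of all probe sets.

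The study compared livers of mice labelled Ugcg-deficient (KO, arrays 427, 429 and 431) with livers labelled wildtype (WT, arrays 426, 428 and 430) on Affymetrix arrays, with 3 arrays per group. Ugcg makes glucosylceramide, the first step of most glycosphingolipids, which are lipids of the outer face of cell membranes. The sources used here do not give the strain, sex and age of the mice, the way the gene was inactivated, or whether an array stands for 1 animal. P-values therefore reflect the scatter among these 6 arrays, part of which may be technical.

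Connexins assemble into hexamers that dock across adjacent membranes and pass ions and second messengers between hepatocytes. Claudins are 4-pass membrane proteins whose extracellular loops close the gap between cells, some as barriers and some as selective pores. Occludin lies in the same strands, and Tjp1 ties them to the actin cytoskeleton. In liver these strands keep bile in the canaliculus.

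Array medians lay between 6.79 and 6.81, and arrays correlated at 0.988 to 0.994 over probe sets. KO 427 and WT 430 stood apart from the other 4 arrays on the first principal component (-11.9 and -14.5, against 3.69 to 9.44), which held 31.5% of the variance. The 6 measured hepatocyte markers were bright on every array. Their mean log2 value was 13.2713 to 13.3169 in KO and 13.2427 to 13.2655 in WT livers, so all KO arrays lay slightly higher. Singly, 2 had the higher mean in KO livers and 4 the lower, and Tat differed most (0.43, limma adjusted p = 0.951). The Ugcg probe set read 7.12, 6.70 and 6.68 in KO livers, against 6.81, 6.85 and 6.87 in WT livers. These groups overlapped, and that reading does not check the labels, since neither the deleted exons nor the probe positions are known here. Array KO 429 carried more cholangiocyte transcript and array WT 430 more exocrine pancreas transcript than the others. These values are given below, beside the genes with their highest value on KO 429 or their lowest on WT 430. All 4 measured adipose and muscle markers had the higher mean in KO livers (summed linear level 503 to 812 in KO and 425 to 482 in WT livers). Singly, each of the 4 overlapped between the groups. Acta1 (8.48) and Ckm (7.29) were highest on KO 427, and Adipoq (6.92) and Fabp4 (8.99) on KO 431. All 7 Kupffer cell markers had the lower mean in KO livers (2754 to 4359 in KO and 3580 to 3948 in WT livers). None of these 11 passed the test, and their part in the values below was not tested. In bulk liver, fewer cells of a type and less RNA per cell cannot be told apart.

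None of the 10 genes passed the limma test at an adjusted p under 0.05 over all probe sets, where 0.0245% of probe sets passed (4 of 16331). Their adjusted p-values ran from 0.951 to 0.998. The mean was higher in KO livers for 7 genes and lower for 3, while 52.5% of all probe sets had the higher mean in KO livers. The median difference of the 10 genes was 0.08 on the log2 scale, and that of all probe sets was 0.01. At an unadjusted p under 0.05 there were 2 of the 10, Cldn2 and Cldn5, both with the higher mean in KO livers, against 2.64% of all probe sets in that direction, 2.35% in the other and 4.99% in either. The KO and WT values did not overlap for these same 2 genes, a pattern that 5.1% of all probe sets showed with KO above WT, 4.47% with KO below WT and 9.57% in either direction. Since the 10 genes were chosen with earlier results of these data known, these counts are set beside the shares without a test. An exact permutation test of 3 arrays against 3 cannot go below 0.1 and was not used for these genes.

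**Figure D1:**
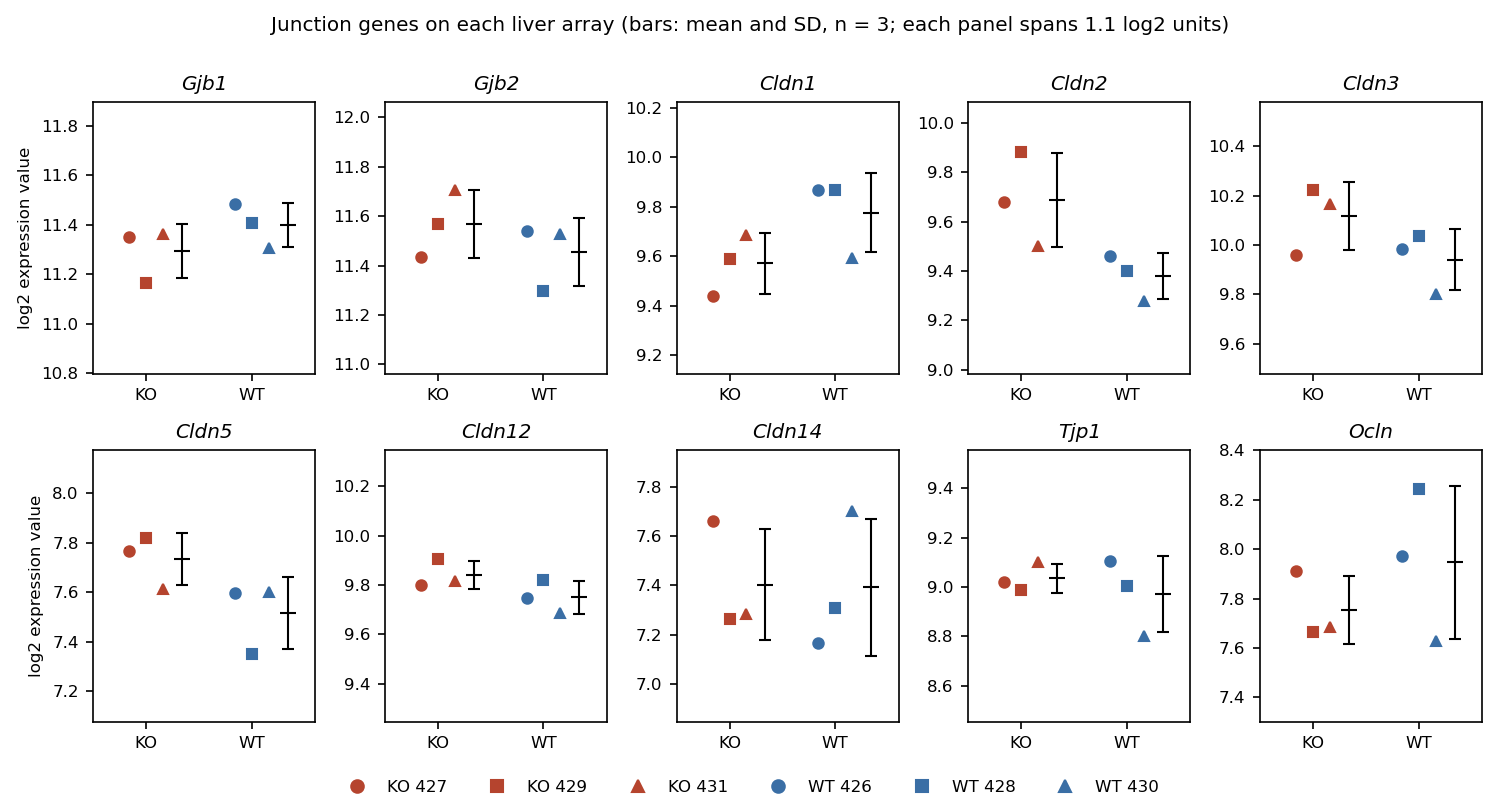
Log2 expression value (vertical axis, each panel spanning the same width) of each of the 10 junction genes on the 3 KO arrays (left, red) and the 3 WT arrays (right, blue), with the mean and SD of each group as black bars. Cldn2 and Cldn5 have all KO points above all WT points, and the other 8 genes overlap.

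Gjb1 encodes the main connexin of hepatocyte gap junctions. It read 11.35, 11.17 and 11.36 in KO livers, against 11.49, 11.41 and 11.31 in WT livers. KO 429 was the lowest of the 6 arrays and WT 426 the highest, and the groups overlapped because WT 430 lay below 2 of the KO arrays. The means were 11.29 ± 0.11 in KO and 11.40 ± 0.09 in WT livers (SD, n = 3 each), a difference of -0.11 (limma, SE 0.08, 95% interval -0.30 to 0.08, adjusted p = 0.982). The difference was -0.04 without KO 429 and -0.06 without WT 426.

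Gjb2 encodes the other connexin of mouse hepatocytes, which can share channels with the Gjb1 product. It read 11.43, 11.57 and 11.71 in KO livers, against 11.54, 11.30 and 11.53 in WT livers. KO 431 was highest and WT 428 lowest, and KO 427 fell inside the WT range. The means, 11.57 ± 0.14 in KO and 11.45 ± 0.14 in WT livers (SD, n = 3 each), differed by 0.11 (limma, adjusted p = 0.982, SE 0.10, 95% interval -0.11 to 0.34). Leaving out WT 428 gave 0.04 and leaving out KO 431 gave 0.05.

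The 2 connexin genes thus had differences of opposite sign and about the same size, and both intervals included 0. Of the other connexins and pannexins, 14 of 21 listed genes had a named probe set, 3 of these lay above the filter, and 0 passed in either direction (0 also at an unadjusted p under 0.05). Their median difference was 0.01. Gja1, the connexin of heart and of many non-parenchymal cells, read 6.84, 7.28 and 6.72 in KO livers, against 6.72, 6.72 and 6.77 in WT livers, with KO 429 above all others. Its difference of 0.21 (SE 0.13, limma adjusted p = 0.982) was 0.04 without that array. Gja4, a connexin of vascular endothelium, differed by 0.17, Gjc1 by -0.14 and the ATP-releasing channel gene Panx1 by 0.02, all with adjusted p-values of 0.982 to 0.996.

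Cldn2 encodes a claudin that forms a channel for cations and water instead of a barrier. It read 9.68, 9.88 and 9.50 in KO livers, against 9.46, 9.40 and 9.28 in WT livers. Every KO array lay above every WT array, KO 429 being highest and WT 430 lowest, with a gap of 0.04 between KO 431 and WT 426. The means were 9.69 ± 0.19 in KO and 9.38 ± 0.09 in WT livers (SD, n = 3 each), so that KO livers averaged 1.24-fold the WT level (difference 0.31, SE 0.10, 95% interval 0.07 to 0.54). The unadjusted p was 0.0162 and the adjusted p 0.951 (limma), so this gene did not pass. Without KO 429 the difference was 0.21 (unadjusted p = 0.0599), without WT 430 it was 0.26 (0.0535) and without KO 431 it was 0.40 (0.00376). Over the 12 alternatives the adjusted p ran from 0.684 to 0.9997.

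Cldn5, the claudin best known for sealing blood vessel endothelium, had the other separated pattern. It read 7.77, 7.82 and 7.61 in KO livers, against 7.60, 7.35 and 7.60 in WT livers. The lowest KO array, 431, exceeded the highest WT array, 430, by 0.01, and WT 428 lay below the other WT arrays. The means were 7.73 ± 0.11 in KO and 7.52 ± 0.15 in WT livers (SD, n = 3 each), a difference of 0.22 (SE 0.09, 95% interval 0.0041 to 0.43, limma unadjusted p = 0.0466, adjusted p = 0.982). The difference was 0.13 without WT 428 (unadjusted p = 0.179) and 0.18 without KO 429 (0.140). The 11 endothelial markers had a summed linear level of 3930, 4146 and 3547 in KO 427, 429 and 431, against 4015, 3613 and 3744 in WT 426, 428 and 430. The KO arrays stood in the same order for these markers as for Cldn5, and WT 428 was the lowest WT array for both, while the group ranges of the markers overlapped. Of the 11, 6 had the higher mean in KO and 5 in WT livers, and 0 passed the limma test (0 also at an unadjusted p under 0.05). Their part in the Cldn5 values was not tested.

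Cldn1, a barrier-forming claudin of epithelia, had the most negative difference of the 10. It read 9.44, 9.59 and 9.69 in KO livers, against 9.87, 9.87 and 9.59 in WT livers. WT 426 and WT 428 lay above all KO arrays, whereas WT 430 fell at the level of KO 429. The means were 9.57 ± 0.12 in KO and 9.78 ± 0.16 in WT livers (SD, n = 3 each), and they differed by -0.20 (limma, adjusted p = 0.982, SE 0.10, 95% interval -0.43 to 0.02). Without WT 430, the array with pancreatic transcript, the difference was -0.30 (unadjusted p = 0.0126, adjusted p = 0.588), and without KO 427 it was -0.14.

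The sequence before the transcription start is shown for these 3 claudins, which have the smallest p-values of the 10 genes and 1 annotated start each. Each line gives the 250 bases before the start, 5′ to 3′ on the gene's strand, from RefSeq on GRCm38.p6, where all 10 genes matched. Capitals mark the motifs searched on both strands: the TATA box TATAAA, the GC box GGGCGG, the CCAAT box CCAAT, the Snail E-box CAGGTG, the HNF1 core GTTAAT and the nuclear receptor core AGGTCA. The windows lie at chrX:139800558-139800807 on the plus strand for Cldn2, at chr16:18776597-18776846 on the plus strand for Cldn5 and at chr16:26371840-26372089 on the minus strand for Cldn1.
Cldn2: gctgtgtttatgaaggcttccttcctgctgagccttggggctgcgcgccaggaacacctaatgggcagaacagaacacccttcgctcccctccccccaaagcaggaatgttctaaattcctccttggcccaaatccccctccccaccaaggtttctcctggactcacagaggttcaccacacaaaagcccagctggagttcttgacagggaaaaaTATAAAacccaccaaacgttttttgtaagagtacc
Cldn5: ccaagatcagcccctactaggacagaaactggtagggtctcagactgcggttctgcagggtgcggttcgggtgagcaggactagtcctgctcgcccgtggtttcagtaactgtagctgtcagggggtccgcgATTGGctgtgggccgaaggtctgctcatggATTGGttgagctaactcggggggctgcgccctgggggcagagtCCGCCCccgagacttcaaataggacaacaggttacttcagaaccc
Cldn1: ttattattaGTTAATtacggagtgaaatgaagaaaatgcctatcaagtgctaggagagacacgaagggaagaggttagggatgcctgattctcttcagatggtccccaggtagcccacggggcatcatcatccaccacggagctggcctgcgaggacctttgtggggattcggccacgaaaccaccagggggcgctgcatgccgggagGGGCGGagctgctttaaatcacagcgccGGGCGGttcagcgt
The 3 windows hold different sets of these letters. Cldn2 has a TATA box whose first base lies 35 bases before the start, a motif found in 12.4% of 32851 RefSeq windows of this length, and it has 4 CpG dinucleotides. Cldn5 has 2 CCAAT boxes and 1 GC box, all on the opposite strand, and 12 CpG. Cldn1 has 2 GC boxes and an HNF1 core, with 14 CpG. GC boxes occur in 32.7%, CCAAT boxes in 33.8% and HNF1 cores in 6.43% of all windows. These matches describe letters only, and no binding was measured.

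Cldn3, a barrier claudin of hepatocytes and bile ducts, read 9.96, 10.22 and 10.17 in KO livers, against 9.98, 10.04 and 9.80 in WT livers. KO 429 and KO 431 lay above all WT arrays and KO 427 fell inside their range. The means, 10.12 ± 0.14 in KO and 9.94 ± 0.12 in WT livers (SD, n = 3 each), differed by 0.18 (limma, adjusted p = 0.982, SE 0.10, 95% interval -0.04 to 0.39). It came to 0.11 without WT 430 and 0.26 without KO 427.

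Cldn12, a claudin that lacks the carboxy-terminal PDZ-binding motif of its relatives, had the narrowest spread of the 10 genes, both within groups and over all 6 arrays. It read 9.80, 9.91 and 9.82 in KO livers, against 9.75, 9.82 and 9.69 in WT livers, and the groups overlapped at WT 428. The difference was 0.09 (SE 0.07, 95% interval -0.07 to 0.25, limma adjusted p = 0.982). Its SD within groups was 0.06, where the median probe set had 0.10.

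Cldn14, which in the inner ear and kidney restricts the passage of cations, had the widest SD within groups, while over all 6 arrays the range of Ocln (0.62) and Cldn2 (0.60) was wider than its own (0.53). It read 7.66, 7.26 and 7.28 in KO livers, against 7.17, 7.31 and 7.70 in WT livers. The high values were KO 427 and WT 430, 1 array of each group and the same 2 that stood apart on the first principal component. Its SD within groups was 0.25 and the difference 0.01 (SE 0.15, 95% interval -0.33 to 0.35, limma adjusted p = 0.998), a difference that was -0.12 without KO 427 and 0.16 without WT 430.

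Of the other claudins, 13 of 19 listed genes had a named probe set, 0 lay above the filter and 0 passed in either direction (0 also at an unadjusted p under 0.05). Their median difference was 0.02, and their range -0.15 to 0.21. Cldn7, a claudin of bile duct and other simple epithelia, read 6.10, 6.51 and 6.17 in KO livers, against 6.04, 6.13 and 5.999 in WT livers. KO 429 was highest, and the difference of 0.21 (limma adjusted p = 0.982) was 0.08 without it. Cldn4, of the same epithelia, differed by -0.05, the intestinal Cldn15 by -0.0039 and Cldn23 by 0.02.

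Tjp1 encodes the zonula occludens scaffold that binds claudin tails through PDZ domains. It read 9.02, 8.99 and 9.10 in KO livers, against 9.11, 9.00 and 8.80 in WT livers. WT 430 was the lowest array and the other 5 lay within the range of the remaining WT pair or just below it. The means were 9.04 ± 0.06 in KO and 8.97 ± 0.15 in WT livers (SD, n = 3 each), and the difference of 0.07 (SE 0.09, 95% interval -0.14 to 0.27, limma adjusted p = 0.987) turned to -0.02 without WT 430.

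Ocln encodes occludin, a regulator of strand stability and of the tight junction's leak pathway. It read 7.91, 7.67 and 7.68 in KO livers, against 7.97, 8.24 and 7.63 in WT livers. WT 426 and WT 428 were the highest arrays and WT 430 the lowest, so the WT values enclosed all KO values. The means, 7.75 ± 0.14 in KO and 7.95 ± 0.31 in WT livers (SD, n = 3 each), differed by -0.19 (limma, adjusted p = 0.982, SE 0.15, 95% interval -0.52 to 0.14). Without WT 430 the difference was -0.35 (unadjusted p = 0.0137), and without WT 428 it was -0.05.

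**Figure D2:**
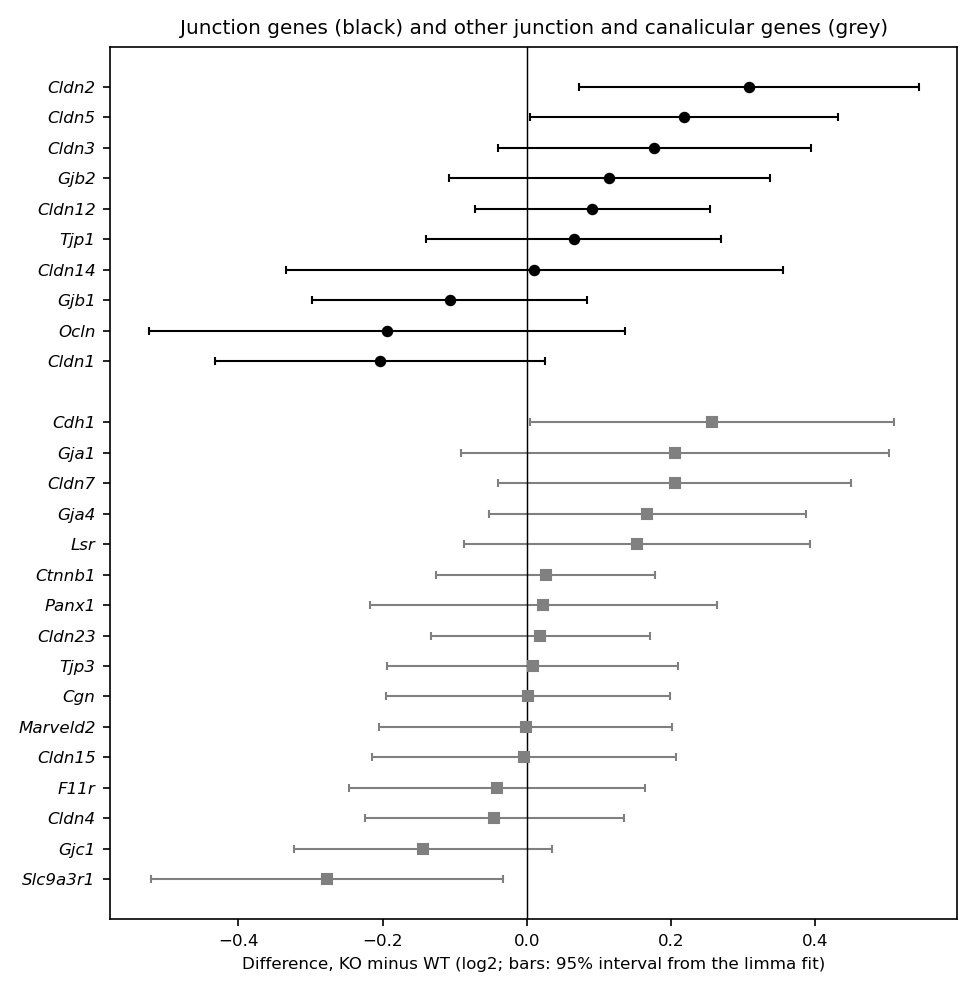
Difference KO minus WT on the log2 scale (horizontal axis) with its 95% interval from the limma fit, for the 10 junction genes (black circles) and 16 other junction and canalicular genes (grey squares). Among the black points, only the intervals of Cldn2 (0.07 to 0.54) and Cldn5 (0.0041 to 0.43) leave out 0, before adjustment for the number of probe sets.

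Among other tight junction proteins, 29 of 31 listed genes had a named probe set and 0 passed in either direction (0 also at an unadjusted p under 0.05), with 19 higher and 10 lower means and a median difference of 0.02. The scaffold genes Tjp3 and Cgn differed by 0.01 and 0.0023. F11r, which encodes a junctional adhesion molecule, differed by -0.04 and Marveld2, which seals contacts where 3 cells meet, by -0.0016. Lsr, which recruits the Marveld2 product to those contacts, read 10.73, 10.60 and 10.38 in KO livers, against 10.30, 10.55 and 10.40 in WT livers, and differed by 0.15 (SE 0.11, limma adjusted p = 0.982). The 95% intervals of these 5 genes reached 0.39 at the top (Lsr) and -0.25 at the bottom (F11r).

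Of the adherens junction and desmosome genes, 15 of 16 had a named probe set and 0 passed, with 7 higher and 8 lower means. Cdh1, the E-cadherin gene of adherens junctions, read 9.71, 9.71 and 9.49 in KO livers, against 9.60, 9.25 and 9.28 in WT livers. WT 426 lay above KO 431, so the groups overlapped. The difference was 0.26 (SE 0.11, 95% interval 0.0046 to 0.51, limma unadjusted p = 0.0468, adjusted p = 0.982), with 0.37 without WT 426 and 0.19 without WT 428. Ctnnb1, which encodes the beta-catenin that binds its tail, differed by 0.03.

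All 15 genes listed for the canalicular membrane, the surface that tight junctions enclose, had a named probe set and 0 passed, with 9 higher and 6 lower means. Slc9a3r1 encodes a PDZ scaffold that anchors transporters to ezrin and radixin at apical membranes. It read 10.84, 10.90 and 11.22 in KO livers, against 11.33, 11.30 and 11.16 in WT livers. KO 427 and KO 429 lay below all WT arrays, and KO 431 lay above WT 430. Its difference was -0.28 (SE 0.11, 95% interval -0.52 to -0.03, limma unadjusted p = 0.0301, adjusted p = 0.955). Over all 86 measured genes of these 5 lists, 2 had an unadjusted p under 0.05 (Cdh1 and Slc9a3r1), where 4.99% of all probe sets did. The KO and WT values did not overlap for 2 of the 86, the cingulin-like gene Cgnl1 (0.08) and the alpha-catenin gene Ctnna1 (0.12), both named after their values were seen, against 9.57% of all probe sets.

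The arrays that held the highest and lowest values of the 10 genes are listed here. The same count over all probe sets was not made, so whether the spread is particular to these genes was not tested. KO 429 held the highest value for 4 of them, Cldn2, Cldn3, Cldn5 and Cldn12, and WT 430 held the lowest value for 5, Cldn2, Cldn3, Cldn12, Tjp1 and Ocln. KO 427 held the highest value for 0 and WT 426 for 3, Gjb1, Cldn1 and Tjp1. In the plot of array deviations, KO 429 lies 0.50 above the WT mean for Cldn2, 0.30 for Cldn5, 0.28 for Cldn3 and 0.16 for Cldn12, whereas for Gjb1 and Ocln it lies 0.23 and 0.28 below (deviations of -0.23 and -0.28).

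KO 429 was also the array with most cholangiocyte transcript. The 7 measured cholangiocyte markers had a summed linear level of 573, 865 and 554 in KO 427, 429 and 431, against 535 to 588 in WT livers. The higher mean was in KO livers for 6 of the 7. Only 3 of the 7 lay above the filter, so most of these markers were dim. The bile duct keratin Krt19 read 7.60 in KO 429, against 6.34 and 6.37 in the other KO and 6.33 to 6.46 in WT livers. Epcam, Muc1 and Prom1 were likewise highest there, so that 4 of the 7 had their highest value on KO 429. Krt7 and Sox9 read 6.52 and 6.70 on KO 429 and were highest on WT 428, at 6.71 and 6.77. Cftr, at 5.61 on KO 429, was as low as elsewhere, and no value in the table is 0. The summed linear level of the pericentral hepatocyte markers was highest in KO 429 too. It was 41309 there, 34556 and 36276 in the other KO and 34857 to 36680 in WT livers. Singly, Cyp2e1 was highest on WT 426, and Axin2 and Lgr5 were highest on WT 428. Of these 9 markers, 4 had the higher mean in KO livers and 5 the lower, and 0 passed. Tbx3 (difference 0.68, limma unadjusted p = 0.00125, adjusted p = 0.638) and Oat (0.39, 0.0108 and 0.951) had all KO arrays above all WT arrays, as Cldn2 did. Cyp2e1 (difference -0.05) had all KO arrays below all WT arrays, and the rest of the list overlapped. Such patterns were not limited to the pericentral list. Of the hepatocyte markers, Tat (0.43, limma unadjusted p = 0.00876, adjusted p = 0.951) had all KO arrays above all WT arrays. Tdo2 (-0.11) had all KO arrays below, and the other hepatocyte markers overlapped. Of all probe sets, 5.1% had KO above WT and 4.47% KO below WT. The part of these transcripts in the claudin values was not tested. Without KO 429 the differences of Cldn2, Cldn5, Cldn3 and Cldn12 were 0.21, 0.18, 0.12 and 0.06. A fall in each of them follows from choosing genes with their highest value on that array.

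WT 430 was the array with pancreatic transcript. The 11 measured exocrine pancreas markers were all highest there, with a summed linear level of 8235, against 1948 and 1971 in the other WT livers, and 1631 to 2224 in KO livers. For the 5 genes with their lowest value on WT 430, the differences without it were 0.26 for Cldn2, 0.11 for Cldn3, 0.06 for Cldn12, -0.02 for Tjp1 and -0.35 for Ocln. A shift downward in each of them follows from choosing genes by their lowest value on that WT array. The part of the pancreatic transcript in these values was not tested.

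**Figure D3:**
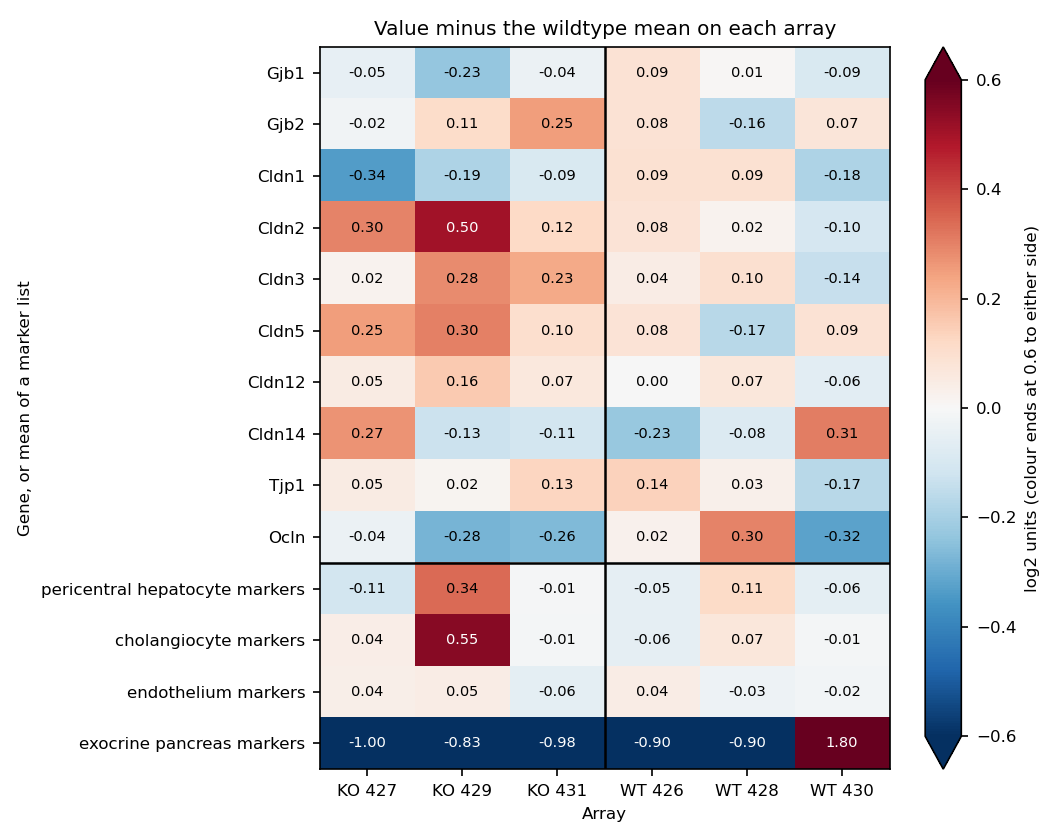
Log2 value minus the WT mean (colour and printed number) for the 10 junction genes and for the mean of 4 marker lists, on the 3 KO arrays (left of the line) and the 3 WT arrays (right of it). KO 429 is high for Cldn2 (0.50) and for the cholangiocyte markers (0.55), and WT 430 for the exocrine pancreas markers (1.80).

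**Figure D4:**
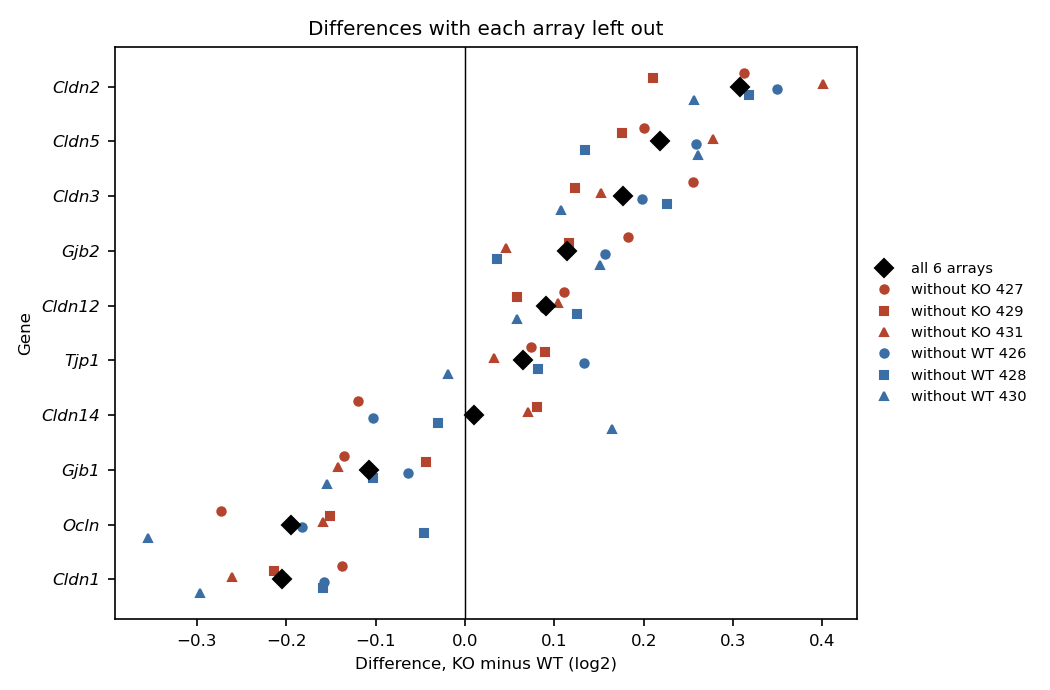
Difference KO minus WT (log2, horizontal axis) for each junction gene with all 6 arrays (black diamonds) and with each array left out (red, a KO array; blue, a WT array). Cldn2, Cldn3, Cldn5, Cldn12 and Gjb2 stay above 0 and Gjb1, Cldn1 and Ocln below 0, while Tjp1 and Cldn14 cross it.

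As the plot with each array left out shows, 8 of the 10 genes kept the sign of their difference. Of the 10 genes, those at an unadjusted p under 0.05 numbered 0 without KO 429 and 1 without WT 428, and 2 or 3 without any of the other arrays. Without both WT 430 and KO 427 there were 2, Cldn1 (-0.23) and Ocln (-0.43), and Cldn2 (0.26) and Cldn5 (0.24) were not among them. No gene of the 10 reached an adjusted p under 0.05 in the limma fit under any of the 12 alternatives, the lowest being 0.407 for Ocln without both those arrays.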

How the data were processed

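Mouse liver RNA for 6 arrays was labelled as biotinylated cRNA for Affymetrix arrays, per the labels' protocols. The values deposited by the authors lie between 5.38 and 14.69 and were taken as log2 from that range. Background correction, normalization and summarisation are not given in the sources used. Of 16395 probe sets, 64 controls were left out. The other 16331 carry 1 Entrez gene number each, and 15644 were named through the platform annotation and RefSeq symbols of GRCm38.p6. Probe sets without a name there stay unnamed. Precision is limited by the number of arrays, with a median standard error of 0.0847 for a difference. Detection calls were not used.

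Values were used as deposited. KO was compared with WT by limma 3.58.1 in R 4.3.3 (lmFit and eBayes, two-sided, Benjamini-Hochberg over all 16331 probe sets, threshold 0.05). Degrees of freedom were 4 residual and 4.85 prior. The fit was tested on simulated data. Linear levels are 2 to the power of the log2 value. Alternatives were array quality weights, leaving out each array or both WT 430 and KO 427, median centring, quantile normalization, a filter on probe sets under the 40th percentile, and robust variance with an intensity trend.

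The members, gene lists and named genes were chosen with earlier results of these data known. The text names all 10 members, Ugcg and a fixed set of genes from the 5 junction and canalicular lists. Any gene of those lists at an unadjusted p under 0.05 is named too. Cell type markers are named as well, some from lists not set beside a member. Cgnl1, Ctnna1 and the desmosome genes Dsp, Pkp2, Dsg2, Dsc2, Perp and Jup were named after their values were seen. Some listed genes are not reported here. Python 3.11.15 and matplotlib 3.10.9 drew the figures.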

Additional observations from a re-analysis of the deposited data

How the results depend on the processing

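No paired analysis was run, because the labels state no pairing and the array numbers of the groups do not coincide. Of the alternative values for the 10 junction genes, 114 of 120 kept the direction and stayed above the threshold, and 6 turned the direction. For the other named genes these were 174 and 25 of 199. The probe sets past the threshold numbered 8 with array quality weights and 8 without WT 430 and KO 427 together (4 as reported, and 3 to 6 under the other settings that keep all arrays), and from 0 to 4 with 1 array left out, with 584 to 1135 at an unadjusted p under 0.05. Of the 10 genes, 1 had an unadjusted p under 0.05 after quantile normalization, after leaving out dim probe sets and with an intensity trend, and 0 to 3 had with 1 array left out. After quantile normalization Cldn14 turned to -0.00117, Tjp3 to -0.00321 and Cgn to -0.0117. With array quality weights Panx1 turned to -0.0100 and Cldn15 to 0.0271. Without WT 430 and KO 427 together Tjp1 turned to -0.0107, Panx1 to -0.129 and Cldn15 to 0.101. With 1 array left out, differences ran from -0.12 to 0.16 for Cldn14, -0.0192 to 0.133 for Tjp1, -0.0870 to 0.117 for Panx1 and -0.0885 to 0.0120 for Cldn4. They ran from -0.0783 to 0.0544 for Cldn15, -0.0557 to 0.0803 for Tjp3, -0.0680 to 0.0493 for Cgn and -0.0902 to 0.0381 for F11r. They ran from -0.0542 to 0.0654 for Marveld2, -0.00146 to 0.0479 for Ctnnb1 and -0.154 to 0.0675 for Ugcg. The cause was not tested for any of these turns. With 3 arrays per group, unadjusted 95% intervals had a median arm of 0.192, so smaller differences were often not detectable. Larger differences also failed the adjusted threshold, such as 0.31 for Cldn2 (limma adjusted p = 0.951).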

Other observations

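These values were picked after the data were seen, so no test is given. The difference Cldn2 minus Cldn1 within each array, which any scaling of whole arrays leaves unchanged, was 0.24, 0.29 and -0.18 in KO livers, against -0.41, -0.47 and -0.31 in WT livers. All KO arrays lay above all WT arrays, and the group means were 0.12 and -0.40. Cldn2 and Cldn1 had the most positive and most negative differences of the 10 genes (0.31 and -0.20). A wide gap between the groups follows from choosing them. The difference Gjb2 minus Gjb1 within each array was 0.08, 0.40 and 0.34 in KO livers, against 0.05, -0.11 and 0.22 in WT livers, and these overlapped. Such values do not show which gene of a pair differs between the groups, and none of these genes passed the limma test singly.

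The desmosome genes Dsp, the plakin that anchors keratin filaments, and Pkp2, which links cadherins to it, had a larger SD in KO than in WT livers. Dsp read 9.08, 8.65 and 9.37 in KO livers, against 9.32, 9.39 and 9.28 in WT livers (SD 0.36 and 0.06). Pkp2 read 8.39, 8.91 and 9.03 in KO livers, against 9.06, 9.09 and 8.75 in WT livers (SD 0.34 and 0.19). The low array was KO 429 for Dsp and KO 427 for Pkp2. The other desmosome genes measured were mixed, with an SD of 0.09 in KO and 0.06 in WT livers for Dsg2, 0.16 and 0.29 for Dsc2, 0.07 and 0.17 for Perp, and 0.08 in both for Jup.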
